A study of Mus musculus with 6 samples.

Results

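The genes described here encode the kelch-repeat and BTB-kelch proteins of the Klhl, Kbtbd and Klhdc families and the cullins. They were chosen by symbol, as the numbered members of the Cul, Klhl, Kbtbd and Klhdc families with at least 60 reads summed over the 6 libraries. Of 64 matching symbols, 59 met this minimum, out of 21959 genes in the table. They comprised all 8 cullins, 35 of 37 Klhl genes, 7 of 9 Kbtbd genes and 9 of 10 Klhdc genes. Just inside the minimum lay Kbtbd6 with 63 reads and Klhl35 with 67, and just outside it lay Klhdc7b with 52 and Kbtbd12 with 32. Klhl38 had 19 reads, Klhl30 had 7 and Kbtbd13 had 0.

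Cullins are elongated scaffold proteins of the largest group of ubiquitin ligases. Their C-terminal part holds a RING protein (Rbx1 or Rnf7) that recruits the ubiquitin-charged conjugating enzyme, and their N-terminal part holds an adaptor and a substrate receptor. Cul3 binds BTB proteins directly, so that a BTB-kelch protein is adaptor and receptor in a single chain, with the kelch propeller holding the substrate. Cul2 binds receptors through elongins B and C, and several Klhdc proteins are such receptors for degrons at the C-terminus of proteins. Attachment of the ubiquitin-like protein Nedd8 switches a cullin on, the COP9 signalosome removes it, and Cand1 exchanges the receptors. In neurons these ligases are known for their part in synaptic receptor turnover, in the ion transport pathway of the WNK kinases and in the cytoskeleton.

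RNA from the paraventricular thalamus of mice, a nucleus near the midline, was sequenced in bulk. The labels give a wild-type genotype for all 6 libraries. The groups are 3 libraries with the treatment CCI (replicates 1, 2 and 3) and 3 control libraries with no treatment (replicates 4, 5 and 6), and neither strain, sex, age nor time after injury is given. CCI stands for chronic constriction injury, where loose ligatures around a peripheral nerve lead to lasting neuropathic pain. No sham operation is named. The tissue label reads brain, and the nucleus is named in the design text and in the titles of the control libraries. That text gives 30 mice per group. How the mice were pooled is not stated, and p-values therefore reflect only how much these libraries vary, part of which may be technical.

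Each CCI library held 7989139 to 10529886 counts, and each control library 12337448 to 15438268. Control replicate 5 stood apart from the other controls over all genes. Its Pearson correlation across genes on log2(FPKM + 1) was 0.973 and 0.976 with control replicates 4 and 6, which reached 0.995 with each other. The share of counts in the top 50 genes was 20.7% there, 14.2% and 14.5% in the other controls and 12.6% to 13.6% in CCI. Values without this library are given where leaving it out changed a call or moved a fold change by over 1.5 times. Levels are CPM, that is, counts relative to the library total scaled by TMM, and fold changes and adjusted p-values come from edgeR's quasi-likelihood test over all 14259 genes tested, with a threshold of 0.05. All 59 members were tested.

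In CCI, 20 of the 59 genes fell and 10 rose, and 29 did not pass the test. Genes below the read minimum are not in these counts. Their reads in CCI and control were 40 and 12 (Klhdc7b), 12 and 20 (Kbtbd12), 16 and 3 (Klhl38) and 7 and 0 (Klhl30). The falls included 4 cullins (Cul1, Cul2, Cul4a and Cul5), 3 receptors of C-terminal degrons (Klhdc1, Klhdc2 and Klhdc3), Kbtbd2 and the mitotic adaptors Klhl9 and Klhl13. The rises included Klhdc8b, Klhdc10, Klhl33, the scarce Klhl34, and Cul7 and Cul9, whose direction turned with an offset for coding length and GC content. In all, 50.8% of members passed against 52.3% of all genes tested, a share near the background. Calls in the lower direction made up 33.9% of members against 25.3% of all genes, and calls in the higher direction 16.9% against 27.0%. Changes over 2-fold among the calls were found in 17 members that fell (28.8%, against 14.2% of all genes) and 5 that rose (8.47%, against 18.0%). The 3 CCI libraries lay entirely below the 3 control libraries in 24 members (40.7%, against 29.4%) and entirely above them in 12 (20.3%, against 33.6%). The median log2 fold change of CCI over control was -0.25 over members and 0.06 over all genes, and the member median turned to 0.25 with the deposited FPKM as log2(FPKM + 1). That scale moved the fold changes of all genes upward by 0.51 at the median, and on it 7 members were called lower (11.9%, against 9.64% of all genes) and 22 higher (37.3%, against 47.6%). Of the 20 falls, 13 did not pass on that scale and 7 did (Cul1, Cul2, Kbtbd2, Kbtbd4, Kbtbd7, Klhdc2 and Klhl13), while all 10 rises passed and 12 of the other 29 members passed as higher. With log2(FPKM + 0.1) the calls were 7 (11.9%, against 9.43%) and 19 (32.2%, against 46.5%). Without control replicate 5, 22 members fell (37.3%, against 30.5%) and 11 rose (18.6%, against 31.5%). Without CCI replicate 1, 6 rose (10.2%, against 20.0%), and with an offset for gene length 5 rose (8.47%, against 21.3%). In bulk tissue, fewer cells of a type and less RNA per cell cannot be told apart.

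**Figure D1:**
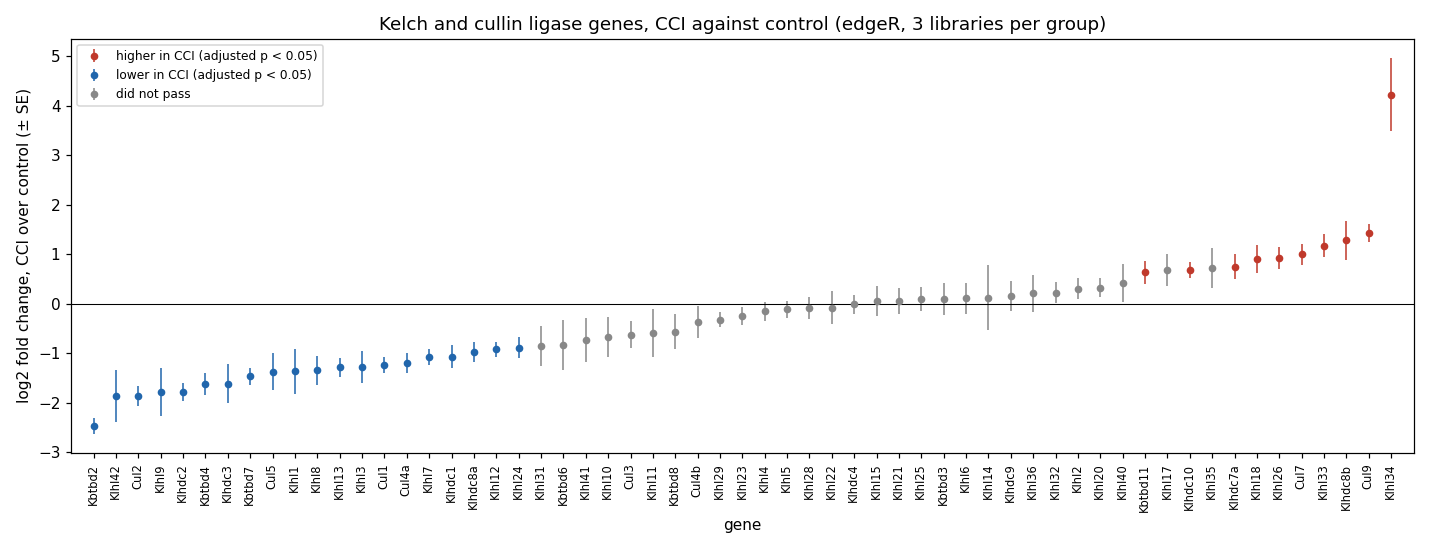
Log2 fold change of CCI over control with its standard error for each of the 59 genes, ordered by size, with colours for the 20 that fell, the 10 that rose and the 29 that did not pass (edgeR, 3 libraries per group). Kbtbd2 lies lowest at -2.47 and Klhl34 highest at 4.22.

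By family, the cullins had 4 falls and 2 rises with a median log2 fold change of -0.91 (-0.50 without control replicate 5), and the Kbtbd genes 3 falls and 1 rise with a median of -0.83. Both medians kept their sign on the log2(FPKM + 1) scale, at -0.24 and -0.07. The Klhdc genes had 4 falls and 3 rises (1 rise when CCI replicate 1 or 2 was left out, or control replicate 6) with a median of -0.01, which became 0.47 on that scale. The Klhl genes had 9 falls and 4 rises among 35 with a median of -0.09, which became 0.37. Over all genes tested 25.3% were called lower and 27.0% higher. The share of Klhl falls was thus near the background, and that of Klhl rises was below it. In all 15 alternative analyses 9 genes were called in the same direction, with Cul1, Cul2, Kbtbd2, Kbtbd4, Kbtbd7, Klhdc2 and Klhl13 among the falls and Klhl33 and Klhl34 among the rises. Klhl34 met the read minimum only through its CCI reads. The share of all genes called in every alternative was not computed, so these 9 have no background to be read against.

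Promoter sequences were taken from RefSeq on GRCm38.p6, whereas the count table is on GRCm39, and 52 of the 59 members had an entry. For each gene the window of the first listed start was searched, from 250 bases before to 50 bases after it. Kbtbd2 is shown as the gene with the largest fall, Klhl9, Klhl13 and Klhdc3 as falls that share an NRF1-type motif, and Cul9 as the cullin with the largest rise. The 250 bases before the start are printed 5′ to 3′ on the strand of the gene, with matches to the searched motifs in capitals. They lie at chr6:56797214-56797463 (Kbtbd2), chr4:88722509-88722758 (Klhl9), chrX:23365083-23365332 (Klhl13), chr17:46680931-46681180 (Klhdc3) and chr17:46546389-46546638 (Cul9), all on the minus strand.
Kbtbd2: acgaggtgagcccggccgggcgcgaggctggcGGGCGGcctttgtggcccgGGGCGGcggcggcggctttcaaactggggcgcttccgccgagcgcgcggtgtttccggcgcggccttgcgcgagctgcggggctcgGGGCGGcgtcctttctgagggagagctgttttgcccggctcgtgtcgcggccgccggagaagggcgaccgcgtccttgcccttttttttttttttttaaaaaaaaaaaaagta
Klhl9: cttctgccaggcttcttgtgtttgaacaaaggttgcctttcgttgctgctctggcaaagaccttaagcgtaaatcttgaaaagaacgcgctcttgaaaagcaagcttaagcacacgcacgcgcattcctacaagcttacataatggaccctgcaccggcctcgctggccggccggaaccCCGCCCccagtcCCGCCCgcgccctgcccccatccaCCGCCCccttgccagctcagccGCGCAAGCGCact
Klhl13: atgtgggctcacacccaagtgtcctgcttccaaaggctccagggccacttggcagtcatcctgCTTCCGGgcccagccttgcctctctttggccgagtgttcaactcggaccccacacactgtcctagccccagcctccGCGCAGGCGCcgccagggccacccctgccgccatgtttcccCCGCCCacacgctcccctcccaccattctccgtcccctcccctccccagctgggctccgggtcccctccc
Klhdc3: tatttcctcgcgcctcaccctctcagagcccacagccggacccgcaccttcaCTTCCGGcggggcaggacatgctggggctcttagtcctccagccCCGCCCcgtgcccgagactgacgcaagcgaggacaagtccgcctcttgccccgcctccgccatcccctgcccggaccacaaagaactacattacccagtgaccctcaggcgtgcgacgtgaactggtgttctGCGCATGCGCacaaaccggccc
Cul9: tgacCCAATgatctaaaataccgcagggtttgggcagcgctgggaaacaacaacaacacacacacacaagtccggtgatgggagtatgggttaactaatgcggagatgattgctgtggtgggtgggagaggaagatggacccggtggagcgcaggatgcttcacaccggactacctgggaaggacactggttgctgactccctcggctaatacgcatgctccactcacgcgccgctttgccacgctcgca
In Kbtbd2 the capitals mark 3 GC boxes (GGGCGG). In Klhl9 they mark 3 GC boxes on the other strand and the NRF1-type match GCGCAAGCGC, also on the other strand, which begins 13 bases before the start. In Klhl13 they mark the NRF1-type match GCGCAGGCGC on the other strand and in Klhdc3 GCGCATGCGC, which reads the same on both strands, and in each of these genes an ETS core (CCGGAAG, here on the other strand) and a GC box on the other strand. In Cul9 they mark a CCAAT box and no GC box or NRF1-type match.

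The NRF1-type motif was searched on both strands as GCGC, any base, T and GCGC. It was found in the windows of 5 of the 52 members (Klhl9, Klhl11, Klhl13, Klhl22 and Klhdc3), which is 9.62% against 4.78% of all 27025 promoters. This background was not limited to genes with reads in these libraries, whereas the members had at least 60 reads. GC boxes were found in 61.5% of members against 35.9% of all promoters, and ETS cores in 21.2% against 9.12%. CCAAT boxes were found in 26.9% against 37.9%, TATA boxes (TATAAA) in 9.62% against 14.2% and the E-box CACGTG in 9.62% against 7.24%. The other 5 motifs searched were the CRE (TGACGTCA), a YY1 core (AAGATGGC), an antioxidant response element core (TGACNNNGC) and the motifs known for Kaiso and Znf143. The response element core was in 7 members (13.5%, against 12.5%) and each of the others in 1. No capitals of different motifs overlap in the stretches printed. The median number of CpG dinucleotides per window was 21.5 in the 16 members that fell and had an entry, 10 in the 9 that rose, 20 in the 27 that did not pass and 7 over all promoters. A match is a description of the letters and not of binding, and these values were not tested.

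Among the cullins, Cul2 fell the most. It is the scaffold that pairs with elongins and with receptors such as Vhl and the Klhdc proteins. Its level was 68.1, 74.8 and 53.5 CPM in CCI and 235, 203 and 277 CPM in control. The groups were far apart, with a log2 fold change of -1.86 ± 0.20 (SE, adjusted p = 0.0002633), or 3.64-fold lower in CCI. Cul1, the scaffold of the SCF ligases with Skp1 and F-box proteins, was at 103, 108 and 92.7 CPM in CCI and at 222, 225 and 267 CPM in control. The log2 fold change of Cul1 was -1.24 ± 0.16 (adjusted p = 0.0005798), and every control library exceeded every CCI library. Cul4a, which pairs with Ddb1 and DCAF receptors, was at 42.9, 47.6 and 40.1 CPM in CCI and at 107, 74.5 and 117 CPM in control (log2 fold change -1.19 ± 0.20, adjusted p = 0.001463).

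Cul5 also works with elongins, through SOCS-box receptors. It was at 97.1, 91.0 and 87.6 CPM in CCI and at 148, 411 and 158 CPM in control, where replicate 5 lay far above the other controls. Its log2 fold change of -1.38 ± 0.37 (adjusted p = 0.0143) became -0.76 without control replicate 5 (adjusted p = 0.0002325), and its call was lost without CCI replicate 3 (adjusted p = 0.05878). Cul3, the scaffold for the BTB-kelch proteins themselves, did not pass the test. It was at 45.9, 48.3 and 46.3 CPM in CCI and at 52.1, 107 and 57.1 CPM in control. The CCI libraries were all below the controls, but the log2 fold change of -0.62 ± 0.27 had an adjusted p of 0.0779. It passed without control replicate 4 (-0.85, adjusted p = 0.02564) and not without control replicate 5 (-0.25, adjusted p = 0.0848). Cul4b, the close relative of Cul4a, was at 16.4, 14.3 and 12.7 CPM in CCI and at 18.8, 27.0 and 10.2 CPM in control, so the groups overlapped (log2 fold change -0.36 ± 0.32, adjusted p = 0.372). The difference between Cul4a and Cul4b in their response was not tested.

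Cul7 and Cul9 are the large, atypical cullins, and Cul9 was first described as a cytoplasmic partner of p53. Cul9 was at 28.9, 28.2 and 29.6 CPM in CCI and at 11.6, 8.86 and 11.6 CPM in control (log2 fold change 1.43 ± 0.18, adjusted p = 0.0004917). Cul7 was at 12.01, 12.7 and 11.3 CPM in CCI and at 6.60, 5.20 and 6.13 CPM in control (log2 fold change 1.001 ± 0.21, adjusted p = 0.004584). Both groups of libraries were tight and did not overlap for either gene. Both rises depended on how length and base composition were treated. With an offset for coding length and GC content the log2 fold change was -0.12 for Cul9 (adjusted p = 0.5404) and -0.22 for Cul7 (adjusted p = 0.3763). With an offset for the deposited gene length alone it was 0.80 for Cul9 and 0.66 for Cul7, and both passed. The 8 cullins together summed to 374 to 425 CPM in CCI and to 801 to 1062 CPM in control.

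**Figure D2:**
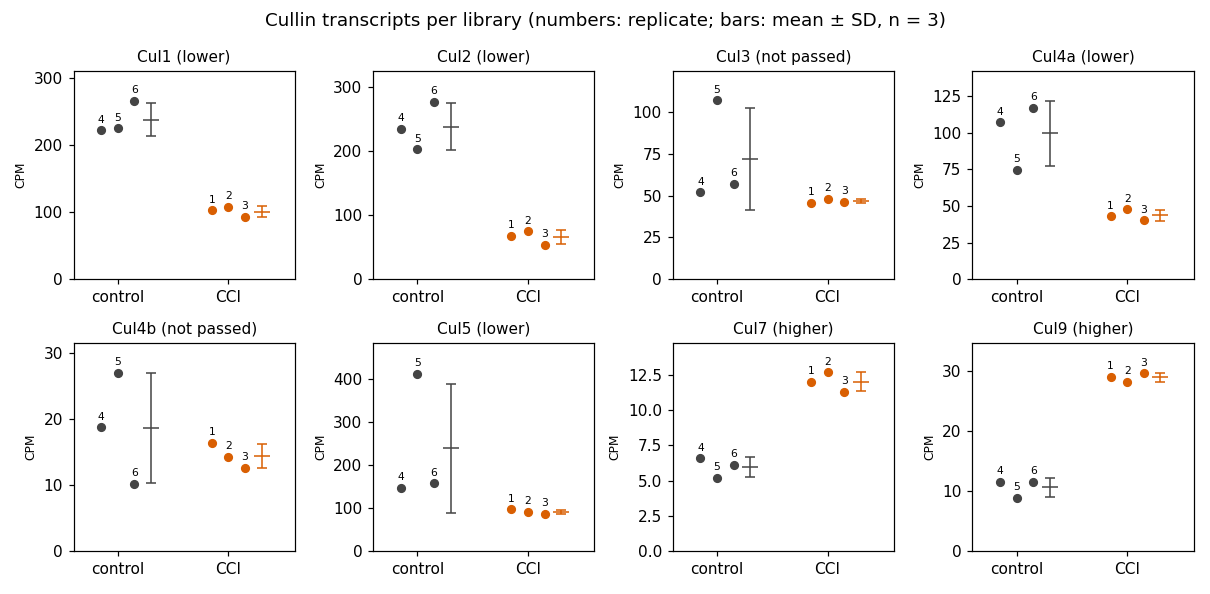
CPM of each cullin in each library, with the replicate number beside each point and the mean ± SD (n = 3) beside the points. Cul1, Cul2, Cul4a and Cul5 are lower in every CCI library than in any control library, Cul7 and Cul9 are higher in CPM (their fold changes turn below 0 with the coding length and GC offset), and control replicate 5 is the highest control for Cul3, Cul4b and Cul5.

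The Klhdc family moved in both directions. Klhdc2, Klhdc3 and Klhdc10 are receptors for Cul2 that bind degrons at protein C-termini, with Klhdc2 known for those ending in glycine, and Klhdc1 is a close relative of Klhdc2. Klhdc2 was at 76.8, 81.9 and 72.1 CPM in CCI and at 265, 216 and 312 CPM in control (log2 fold change -1.78 ± 0.19, adjusted p = 0.0002514). Klhdc1 was at 11.01, 13.4 and 12.9 CPM in CCI and at 30.3, 18.1 and 29.5 CPM in control (log2 fold change -1.07 ± 0.23, adjusted p = 0.005581). These 2 genes are neighbours on chromosome 12, separated by 12048 bp in the deposited coordinates, and both fell.

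Klhdc3, whose promoter with its NRF1-type match is printed above, was at 41.0, 43.8 and 37.4 CPM in CCI and at 156, 48.8 and 168 CPM in control. Control replicate 5 was close to the CCI libraries for this gene, though above all of them. The log2 fold change was -1.61 ± 0.40 (adjusted p = 0.009223) and -2.02 without that library (adjusted p = 1.73e-06). Klhdc3 lies 10185 bp from Cul7 on chromosome 17, where the first fell and the second rose. Klhdc10, the other Cul2 receptor of the group, rose. It was at 31.5, 33.9 and 35.3 CPM in CCI and at 20.6, 19.7 and 22.4 CPM in control (log2 fold change 0.68 ± 0.16, adjusted p = 0.006582), and its call was lost with the gene length offset (0.27, adjusted p = 0.1893).

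Klhdc8a fell (log2 fold change -0.97 ± 0.21, adjusted p = 0.004692) while its relative Klhdc8b rose. Klhdc8b was at 38.7, 37.9 and 25.6 CPM in CCI and at 21.8, 6.14 and 13.8 CPM in control, with replicate 5 the lowest (log2 fold change 1.28 ± 0.39, adjusted p = 0.0236). Its call was lost when CCI replicate 1 (adjusted p = 0.07229) or 2 (0.07065) was left out, or control replicate 6 (0.05918), and with the gene length offset (0.08882). Klhdc7a was at 6.21, 5.75 and 4.77 CPM in CCI and at 3.21, 3.43 and 3.29 CPM in control (log2 fold change 0.75 ± 0.25, adjusted p = 0.03426). That call was lost when CCI replicate 1 (0.1328) or 2 (0.09792) was left out, or control replicate 4 (0.09768) or 6 (0.08999), with no filter on low counts (0.05325) and with the gene length offset (0.243), and its log2 fold change was 0.06 with the coding length and GC offset. Klhdc4 and Klhdc9 did not pass. The coordinates of Klhdc2, Klhdc3, Klhdc8b and Klhdc9 overlap a gene on the opposite strand (Nemf, Mea1, Ccdc71 and Pfdn2), as do those of Kbtbd4 (Ptpmt1 and Ndufs3) and Klhl9 (Gm26566, which had 0 reads), and those of Klhl17 overlap Plekhn1 on the same strand. No strand setting of the counting is stated, so reads of the overlapping stretches cannot be told apart.

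Kbtbd2 had the largest fall of all the members. It is a Cul3 adaptor known to set the level of Pik3r1, a regulatory subunit of phosphoinositide 3-kinase, and thereby insulin signalling. It was at 38.5, 39.1 and 39.9 CPM in CCI and at 202, 244 and 207 CPM in control. No library came near the other group, and the log2 fold change of -2.47 ± 0.16 (adjusted p = 0.0001531) is a 5.55-fold lower level in CCI. Its log2 fold change was -2.46 with the coding length and GC offset and -2.41 without control replicate 5. The transcript of its described substrate Pik3r1 was at 90.6, 90.03 and 98.8 CPM in CCI and at 38.3, 58.2 and 40.5 CPM in control and rose (log2 fold change 1.03 ± 0.19, adjusted p = 0.00245).

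Kbtbd4, an adaptor for the CoREST complex around Rcor1, was at 4.81, 6.02 and 4.16 CPM in CCI and at 14.5, 16.7 and 14.9 CPM in control (log2 fold change -1.62 ± 0.23, adjusted p = 0.0006984). Kbtbd7, known for acting on Tiam1 together with Kbtbd6 and on neurofibromin (Nf1), was at 12.01, 14.1 and 12.9 CPM in CCI and at 39.3, 32.5 and 35.95 CPM in control (log2 fold change -1.47 ± 0.17, adjusted p = 0.0003357). In both genes the groups were well apart. Kbtbd6 lies 20798 bp from Kbtbd7 on chromosome 14 and was scarce, at 0.701, 0.274 and 1.001 CPM in CCI and at 0.981, 1.18 and 1.42 CPM in control, and its groups overlapped (log2 fold change -0.83 ± 0.50, adjusted p = 0.1879). Kbtbd3 and Kbtbd8 did not pass. Kbtbd3 passed as higher without control replicate 5 (0.59, adjusted p = 0.009318). Kbtbd11 was the only Kbtbd gene that rose, at 17.3, 15.5 and 24.2 CPM in CCI and at 11.95, 14.3 and 10.6 CPM in control (log2 fold change 0.64 ± 0.23, adjusted p = 0.04501). That call was lost when CCI replicate 1 (0.08476) or 3 (0.1708) was left out, or control replicate 4 (0.115) or 6 (0.1418), with DESeq2 size factors (0.06279), the DESeq2 Wald test (0.05777), no filter (0.05299) or the gene length offset (0.2819), and the log2 fold change was -0.05 with the coding length and GC offset (0.8819).

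Klhl9 was the most abundant member per transcript length in both groups, at 146 ± 10.96 FPKM in CCI and 310 ± 200 FPKM in control (SD, n = 3). With Klhl13 and Klhl21 it forms the Cul3 adaptors known for moving Aurora B off chromosomes in mitosis. Klhl9 was at 502, 462 and 524 CPM in CCI and at 872, 3286 and 967 CPM in control. Control replicate 5 exceeded the other controls more than 3-fold, and all 3 controls exceeded the CCI libraries. The log2 fold change of -1.78 ± 0.49 (adjusted p = 0.01507) became -0.91 without that library (adjusted p = 0.0002217). The call was lost without CCI replicate 1 (0.05134), 2 (0.05443) or 3 (0.05454). Klhl13 showed no such library, at 43.6, 36.9 and 32.3 CPM in CCI and at 89.2, 109 and 75.3 CPM in control (log2 fold change -1.28 ± 0.19, adjusted p = 0.0009727). Klhl21 was scarce and its groups overlapped, at 7.31, 5.84 and 6.16 CPM in CCI and at 6.24, 4.61 and 7.55 CPM in control (adjusted p = 0.8652).

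Klhl22, an adaptor described for Plk1 and for Depdc5 in the amino acid sensing branch of mTORC1 signalling, was at 69.0, 81.3 and 65.6 CPM in CCI and at 100.4, 35.7 and 92.2 CPM in control. It passed as lower only in the analysis that left out control replicate 5, which was the lowest library of all (-0.44, adjusted p = 0.008938). Klhl42, an adaptor for the microtubule-severing katanin, also had its highest level in control replicate 5. It was at 64.4, 64.0 and 74.4 CPM in CCI and at 113, 502 and 128 CPM in control (log2 fold change -1.87 ± 0.53, adjusted p = 0.01668). Without control replicate 5 its log2 fold change was -0.86 (adjusted p = 0.0001982), and its call was lost without CCI replicate 1 (0.05437), 2 (0.05608) or 3 (0.05693).

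Klhl3 and Klhl2 are paralogous adaptors that target the WNK kinases, the upstream regulators of cation-chloride cotransporters. Klhl3 was at 77.4, 71.8 and 115 CPM in CCI and at 152, 327 and 162 CPM in control (log2 fold change -1.28 ± 0.33, adjusted p = 0.01086, and -0.85 without control replicate 5). Klhl2 was at 77.4, 84.0 and 128 CPM in CCI and at 79.2, 81.6 and 72.9 CPM in control, so its groups overlapped (log2 fold change 0.31 ± 0.21, adjusted p = 0.2398). The difference between these paralogues was not tested. Klhl12, known for monoubiquitination of Sec31a in COPII vesicle coats, was at 46.3, 44.3 and 40.3 CPM in CCI and at 86.3, 72.3 and 89.4 CPM in control (log2 fold change -0.92 ± 0.15, adjusted p = 0.001567).

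Of the members with neuronal roles, Klhl1 and Klhl24 fell and Klhl17 and Klhl20 did not pass. Klhl1, an actin-binding protein of neurons, was scarce, at 8.01, 5.38 and 2.001 CPM in CCI and at 14.1, 16.8 and 8.67 CPM in control (log2 fold change -1.37 ± 0.46, adjusted p = 0.03393). Its call was lost when CCI replicate 2 (0.08105) or 3 (0.06698) was left out, or control replicate 4 (0.06261). Klhl24, described as a partner of kainate receptors and a regulator of keratin, was at 129, 118 and 123 CPM in CCI and at 189, 293 and 200.1 CPM in control (log2 fold change -0.88 ± 0.20, adjusted p = 0.006732). Klhl17, also called actinfilin and known to bind the kainate receptor subunit Grik2, was at 7.81, 4.83 and 6.93 CPM in CCI and at 5.17, 2.60 and 4.34 CPM in control, with overlap (adjusted p = 0.1079). Klhl20, which targets the death-associated kinase Dapk1, was at 16.1, 19.3 and 16.0 CPM in CCI and at 15.2, 13.7 and 12.1 CPM in control (adjusted p = 0.173). Klhl15, an adaptor for a PP2A regulatory subunit, was at 13.1, 13.04 and 10.2 CPM in CCI and at 10.5, 17.2 and 7.48 CPM in control (adjusted p = 0.8961). Of the other Klhl falls, Klhl7, linked to inherited retinal degeneration, had a log2 fold change of -1.08 ± 0.17 (adjusted p = 0.001056). Klhl8 fell by 1.34 ± 0.29 on the log2 scale (adjusted p = 0.005483).

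Klhl34 had the largest rise, and few reads lay behind it. It lies on the X chromosome (GRCm39 chrX:156601431-156603365, plus strand). It was at 1.90, 1.10 and 2.69 CPM in CCI and at 0.178, 0.118 and 0 CPM in control. In reads this was 66 in the CCI libraries together and 3 in the control libraries together. Klhl34 thus met the read minimum for members only through the group in which it was high. The ratio of CCI to control, scaled to the libraries' effective totals, was 21.5, with a 95% exact interval of 7.03 to 107 that covers counting error only. The fitted log2 fold change was 4.22 ± 0.74 (adjusted p = 0.002025), 5.02 without control replicate 4 and 3.55 without control replicate 6.

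Klhl33 was at 17.3, 15.3 and 14.5 CPM in CCI and at 8.56, 6.61 and 5.68 CPM in control (log2 fold change 1.18 ± 0.23, adjusted p = 0.003004). Klhl26 was at 33.7, 31.7 and 28.7 CPM in CCI and at 21.4, 12.2 and 15.6 CPM in control (log2 fold change 0.93 ± 0.22, adjusted p = 0.008361), and its call was lost with the coding length and GC offset (0.39, adjusted p = 0.08658). The groups were apart for both genes. Klhl18, which has been described as a Cul3 adaptor for Aurora A, was at 16.7, 17.0 and 19.9 CPM in CCI and at 11.6, 5.55 and 11.2 CPM in control (log2 fold change 0.91 ± 0.28, adjusted p = 0.02534). Its call was lost without CCI replicate 1 (0.0591), 2 (0.05895) or 3 (0.08709) and with the gene length offset (0.1025).

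Members known from other tissues were scarce, apart from Klhl33, which is given above and was grouped with the striated muscle genes. Klhl40 and Klhl41, of striated muscle, were at 2.55 to 4.62 and 1.078 to 1.55 CPM in CCI and at 1.54 to 3.39 and 1.35 to 3.66 CPM in control, with overlapping groups. Klhl31, also of muscle, was at 0.847 to 1.55 CPM in CCI and at 1.57 to 2.94 CPM in control and did not pass (adjusted p = 0.1048), though it passed as lower with the gene length offset (0.04424). Klhl10, of the testis, was at 0.701 to 1.003 CPM in CCI and at 1.07 to 1.89 CPM in control and did not pass (adjusted p = 0.1968). Klhl6, of B lymphocytes, was at 1.92 to 2.70 CPM in CCI and at 2.13 to 2.41 CPM in control (adjusted p = 0.7855). Klhl11 did not pass over all libraries, with control replicate 5 at 4.61 CPM and the other controls at 22.7 and 22.5 CPM, and it passed as lower without that library (-1.04, adjusted p = 0.0003057). The remaining Klhl members that did not pass were Klhl4, Klhl5, Klhl14, Klhl23, Klhl25, Klhl28, Klhl29, Klhl32, Klhl35 and Klhl36, with log2 fold changes from -0.32 for Klhl29 to 0.71 for Klhl35.

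Control replicate 5 departed from the other controls in many of these genes and in both directions. In 13 members it exceeded the mean of control replicates 4 and 6 by over 1.5 times, and in 14 it lay below that mean by over 1.5 times. The widest excesses were 4.17 times for Klhl42, 3.58 times for Klhl9 and 2.69 times for Cul5. At the other end the ratios were 0.204 for Klhl11, 0.301 for Klhdc3, 0.345 for Klhdc8b and 0.371 for Klhl22. Klhl9 alone took 53.9% of the summed FPKM of all members in that library, and 25.2% to 28.8% in each of the other 5. The summed CPM of the members was 2192 to 2235 in CCI and 3909 to 6997 in control, and without Klhl9 it was 1698 to 1733 in CCI and 3037 to 3711 in control. Without that library all 20 falls and all 10 rises still passed.

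**Figure D3:**
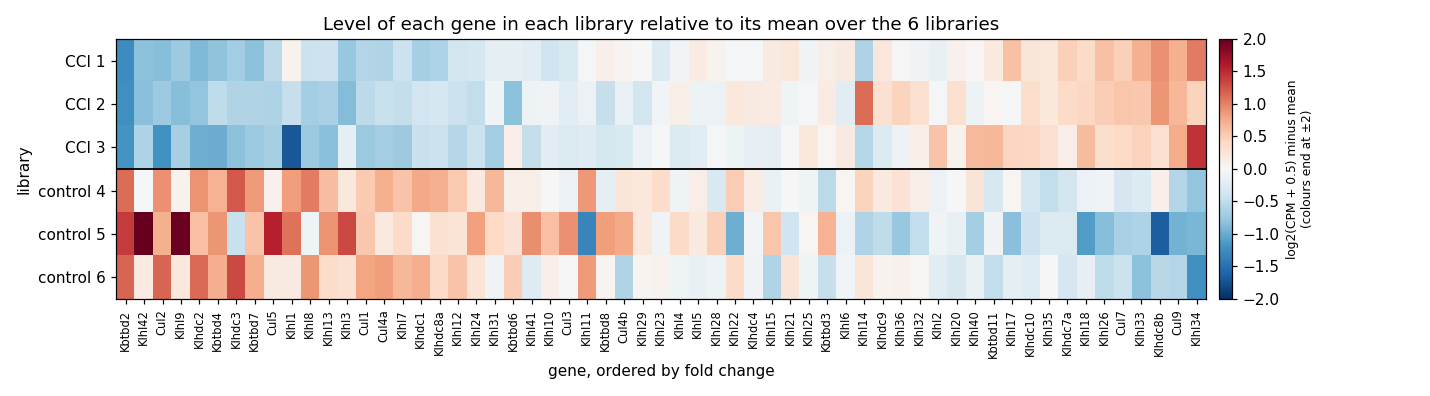
Level of each of the 59 genes (columns, ordered by fold change) in each library (rows), as log2(CPM + 0.5) minus its mean over the 6 libraries, with colours ending at ±2. The 3 CCI rows are alike, and the row of control replicate 5 differs from those of control replicates 4 and 6 at Klhl42, Klhl9, Cul5, Klhdc3 and Klhl11.

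The members that fell and rose differed in base composition. The median GC content of the coding sequence was 47.4% in the 20 that fell, 59.2% in the 10 that rose and 51.4% in the 29 that did not pass. Over all genes tested the medians were 51.1% for falls, 53.8% for rises and 53.9% for the rest. Median coding length was close among members, at 1826 bases for falls and 1916 for rises, against 1035 and 2271 bases over all genes. The deposited gene length differed, with medians of 4261 bases for falls and 7274 for rises, against 3730 and 6390 over all genes. With the gene length offset all 20 falls and 5 of the 10 rises passed again. With a per-library offset for coding length and GC content, all 20 falls passed again as lower. Of the 10 rises, 5 passed again (Klhl34, Klhdc8b, Klhdc10, Klhl18 and Klhl33), while Cul7, Cul9 and Kbtbd11 turned below 0 without passing. Cul3 (-1.17, adjusted p = 0.003369), Cul4b (-1.01, 0.01955) and Klhl29 (-1.04, 0.002125) were then called lower, so that 6 of 8 cullins were lower and none higher. In that fit 39.7% of the 58 members with a coding sequence were lower, against 25.3% of all genes, and 8.62% were higher, against 19.9%. How far length or base composition bears on the differences between groups was not tested beyond these offsets.

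**Figure D4:**
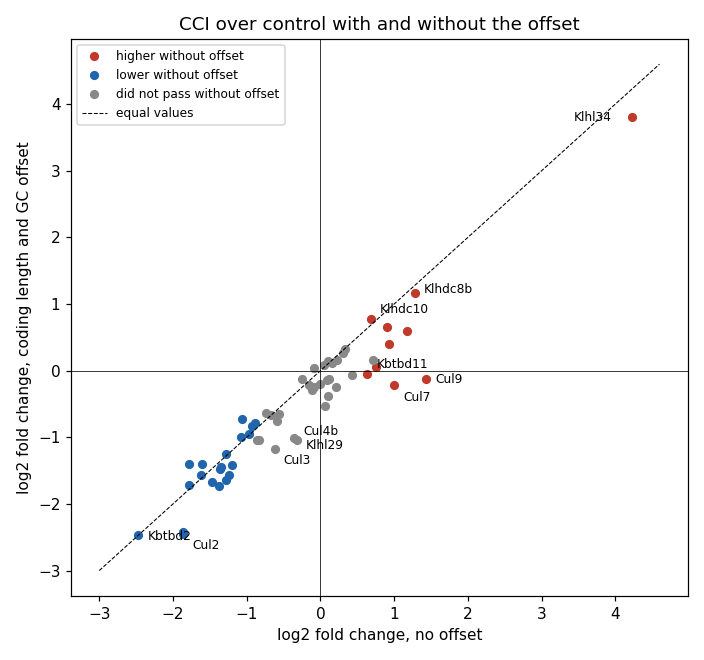
Log2 fold change of CCI over control without an offset (horizontal axis) and with the offset for coding length and GC content (vertical axis) for 58 genes. The genes that fell stay below 0 on both axes, while Cul7, Cul9 and Kbtbd11 move from above 0 to just below it.

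The shared machinery of the cullins and their other receptors were counted by list, beside 25.3% of all genes called lower and 27.0% called higher, and no list was tested against the rest. Of the 11 tested core subunits and exchange factors, 4 fell (Rbx1, Skp1, Eloc and Cand1) and 1 rose (Cand2). The call of Cand2 was lost without CCI replicate 2 or control replicate 6, and with the coding length and GC offset (0.11, adjusted p = 0.8435). In that last fit 5 of the list fell and none rose, against 25.3% and 19.9% of all genes. The median log2 fold change of the list was -0.42 and became 0.18 on the log2(FPKM + 1) scale, where the median of all genes also lay higher. Rbx1, the RING subunit, was at 267 ± 14.9 CPM in CCI and 497 ± 131 CPM in control (SD, n = 3). Cand1, the exchange factor, had a log2 fold change of -1.29 ± 0.20 (adjusted p = 0.00113). Of 11 neddylation genes 6 fell and none rose, with a median of -0.82. On the log2(FPKM + 1) scale 2 were lower and 1 higher, against 9.64% and 47.6% of all genes. With the coding length and GC offset 4 fell, against 25.3% of all genes, and the median was -0.37. Without CCI replicate 1 (18.2% of all genes) or 2 (19.8%), 4 fell, and with the gene length offset 7 fell (27.0%). Uba3, the catalytic subunit of the Nedd8-activating enzyme, was at 81.7, 88.5 and 80.5 CPM in CCI and at 282, 451 and 330 CPM in control (log2 fold change -2.08 ± 0.21, adjusted p = 0.000239). Ube2f, the conjugating enzyme that serves Cul5, had a log2 fold change of -1.63 ± 0.22, Nedd8 itself -1.23 ± 0.31 (-0.81 without control replicate 5) and Nae1 -0.82 ± 0.17.

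Of the 10 COP9 signalosome subunits, 8 fell and none rose, against 25.3% and 27.0% of all genes. Without control replicate 5 there were 10 falls, against 30.5% of all genes. There were 4 falls without CCI replicate 1 (18.2% of all genes) and 5 without CCI replicate 2 (19.8%) or 3 (19.2%). With the coding length and GC offset 5 fell, against 25.3% of all genes. On the log2(FPKM + 1) scale 4 were lower, against 9.64% of all genes. The median of the subunits was -0.74, and -0.07 on that scale. Cops4 was at 118, 136 and 101 CPM in CCI and at 398, 617 and 477 CPM in control (log2 fold change -2.07 ± 0.23, adjusted p = 0.00028). Gps1, subunit 1 of the complex, was at 88.5, 106 and 83.5 CPM in CCI and at 275, 249 and 287 CPM in control (log2 fold change -1.55 ± 0.17). These genes are members of no kelch family and are given because every cullin ligase depends on them.

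Other BTB and kelch genes that carry no family number gave 4 falls and 1 rise among 13 with a median of -0.03. Over all genes 25.3% fell and 27.0% rose. Without control replicate 5 the list had 7 falls and 2 rises with a median of -0.29, against 30.5% and 31.5% of all genes. It had 2 rises without control replicate 4 (23.6% of all genes) or 6 (21.3%). On the log2(FPKM + 1) scale it had 1 fall and 6 rises, near the 9.64% and 47.6% of all genes. Enc1, a neuronal BTB-kelch protein, had a log2 fold change of -1.37 ± 0.24 (adjusted p = 0.00205). Of 30 receptors of other cullins, 12 fell and 5 rose with a median of -0.34. On the log2(FPKM + 1) scale 2 were lower and 11 higher, against 9.64% and 47.6% of all genes. With the gene length offset 16 fell and 1 rose, against 27.0% and 21.3% of all genes, and the median was -0.72. Without control replicate 5 the median was -0.16. Without CCI replicate 1 (20.0% of all genes) or control replicate 4 (23.6%), 3 rose. Crbn, the Cul4 receptor that binds thalidomide, was at 36.9, 35.5 and 33.0 CPM in CCI and at 114, 119 and 122 CPM in control (log2 fold change -1.75 ± 0.14, adjusted p = 0.000175). Dcaf15, another Cul4 receptor, rose by 1.95 ± 0.26 (adjusted p = 0.000607), from 2.02 to 7.84 CPM.

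Transcripts of proteins described as substrates or partners of these adaptors rose more often than they fell. Of 19 tested, 13 rose and 1 (Rhoa) fell, against 27.0% and 25.3% of all genes, with a median of 0.86. With the gene length offset 6 rose and 2 fell, against 21.3% and 27.0% of all genes, and the median was 0.41. With the coding length and GC offset 6 rose and 2 fell, against 19.9% and 25.3% of all genes in that fit, and the median was 0.11. The log2 fold change of Rhoa was -1.07, and -0.46 without control replicate 5, when 2 of the list fell, and its call was lost without CCI replicate 1, 2 or 3. All 4 WNK kinases, targets of Klhl2 and Klhl3, were among the rises, with Wnk1 at 380, 343 and 475 CPM in CCI and at 150, 265 and 145 CPM in control (log2 fold change 1.10 ± 0.27, adjusted p = 0.00956). None of these 4 rises passed with the coding length and GC offset, which brought Wnk1 to 0.06, Wnk3 to 0.11, Wnk4 to 0.77 (adjusted p = 0.121) and Wnk2 to -0.91, the last passing as lower. Grik2, the kainate receptor subunit, rose by 1.22 ± 0.16 (adjusted p = 0.000618) and Oxsr1, a kinase downstream of the WNKs, by 1.09 ± 0.16 (adjusted p = 0.000959), and both passed with that offset too. These are transcript levels, and ligase activity and protein levels were not measured. Of 7 targets of Nrf2, the substrate of the BTB-kelch protein Keap1, 3 fell (Txnrd1, Srxn1 and Gclm) and 1 rose (Slc7a11, and 2 rose without control replicate 5). Only 2 of them fell when any CCI library, or control replicate 4 or 6, was left out. With the coding length and GC offset 2 fell and 2 rose, against 25.3% and 19.9% of all genes. With the gene length offset 3 fell and none rose, against 27.0% and 21.3%. On the log2(FPKM + 1) scale 1 was lower and 3 were higher, against 9.64% and 47.6%. Keap1 was at 37.9 ± 0.818 CPM in CCI and 36.1 ± 2.38 CPM in control (SD, n = 3).

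**Figure D5:**
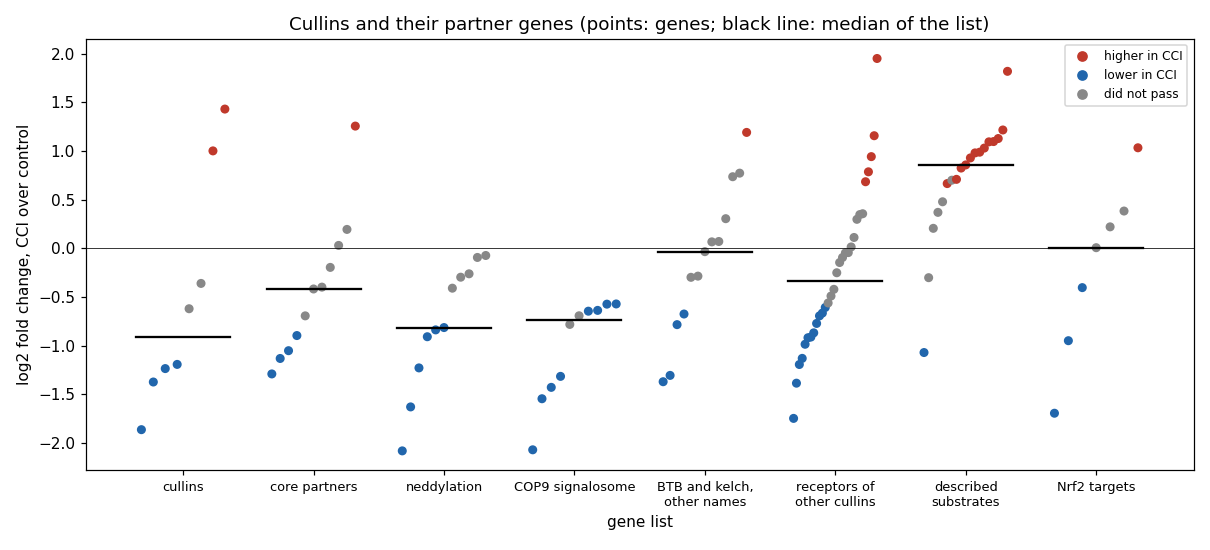
Log2 fold change of CCI over control of each tested gene in the lists of ligase partners, with colours for genes that fell, rose or did not pass. The COP9 signalosome and neddylation genes that passed lie below 0, and 13 of 19 described substrates lie above 0 and passed.

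Markers of cell types and of neighbouring regions also differed between the groups, and their part in the results above was not tested. Over all genes tested 25.3% were called lower and 27.0% higher. Of 9 markers of the paraventricular and midline thalamus 7 fell and none rose, and their summed level was 1387 to 2140 CPM in CCI and 4862 to 7700 CPM in control. Of 7 hippocampal and cortical markers tested 6 rose, with sums of 161 to 193 CPM in CCI and 58.3 to 75.6 CPM in control. Of 7 GABAergic and striatal markers 5 rose (2 without CCI replicate 3), with sums of 146 to 403 and 66.2 to 106 CPM. Of 8 oligodendrocyte markers 6 rose and none fell (18470 to 24340 CPM in CCI, 7148 to 13900 in control), and of 6 oligodendrocyte precursor markers 5 rose (477 to 586 and 123 to 152 CPM). Of 8 astrocyte markers 2 rose and 3 fell (3502 to 4212 and 8061 to 10760 CPM). Aldoc, a marker that fell, made up 952 to 1334 CPM of these sums in CCI and 4714 to 6232 CPM in control. Of 8 microglial markers 3 rose (1 without CCI replicate 2 or 3, 168 to 228 and 114 to 151 CPM). Pan-neuronal markers gave 1 rise (lost when CCI replicate 1 or 2 was left out, or control replicate 4 or 6) and 1 fall among 5 (2 falls without control replicate 5, 2883 to 3107 and 6395 to 8960 CPM), and habenular markers 2 falls among 5 (1 without CCI replicate 3, 197 to 551 and 431 to 1573 CPM). Endothelial markers gave 1 rise among 5 (lost without CCI replicate 2), and ependymal and choroid markers 2 rises among 5, with sums that overlapped between groups. No marker of these lists was at 0 in every library.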

How the data were processed

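Bulk RNA of 6 mouse libraries was poly-A selected and reverse transcribed from random primers, per the labels' protocols. The submitters' processing notes list HISAT2 2.1.0, StringTie 2.2.1, HTSeq 0.9.1, fastp 0.22.0, DESeq 1.38.3 and GRCm39, and give no strand setting. The authors deposited read counts, which were used unchanged. Each FPKM value deposited by the authors equals its count over gene Length and column total, within a relative difference of 1.3e-07. Of 21959 genes, 4001 have no count.

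The main test was that of edgeR 4.0.16 under R 4.3.3 (TMM, filterByExpr, quasi-likelihood F-test, Benjamini-Hochberg over all 14259 genes tested, threshold 0.05). Standard errors are log2 fold changes over the root of F. Alternatives used DESeq2 size factors, DESeq2 1.42.0, limma 3.58.1 on log2(FPKM + 1) and log2(FPKM + 0.1), limma-voom, 2 other filters, each library left out, and offsets for gene length or for coding length and GC content. Coding sequences came from a GENCODE annotation matched by gene identifier. The test code was tested on simulated data. Python 3.11.15 drew the figures.

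The members, gene lists and offsets were chosen with earlier results of these data known. Named genes were all cullins, the 10 largest rises and falls that passed, fixed role groups, and up to 4 genes of smallest p from each partner list. Other partner genes and the marker gene named were chosen after their values were seen, as were the motifs and the promoters shown. A gene that met the naming rule is not reported here.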

Additional observations from a re-analysis of the deposited data

How the results depend on the processing

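The deposited FPKM divides by the column total without TMM, and moved the count of all genes called higher to 6785 (pseudocount 1) and 6632 (0.1) and of those called lower to 1374 and 1345, from 3853 and 3608. Members called higher became 22 and 19, and members called lower 7 and 7. The member median turned to 0.25 and 0.35, and the partner lists had 40 and 40 genes higher and 13 and 13 lower, against 21 and 38. With log2(FPKM + 1), 12 members that did not pass in counts were called higher. Among them, Klhdc4 (0.47), Klhl28 (0.44 and 0.53) and Klhl4 (0.41 and 0.45) had a fold change below 0 in counts. The others were Kbtbd3, Klhl2 (0.79, adjusted p = 0.0133 by limma), Klhl6, Klhl15, Klhl17, Klhl20, Klhl25, Klhl32 and Klhl35. The gene length offset left 5 members higher, a median of -0.43 and 8 partner genes higher. The coding length and GC offset left 5 members higher and a median of -0.58, and Cul7 (-0.22), Cul9 (-0.12) and Kbtbd11 (-0.048) reversed without passing. The cause was not tested. Leaving out each library in turn gave 6 (without CCI replicate 1) to 11 members higher. No paired analysis was possible because no replicate number is shared between the groups. Depth limits Klhl34 and the other members with few reads.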
